A study of Mus musculus with 2 samples.

Results

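The genes described here are 3 R-spondins, Rspo1, Rspo2 and Rspo3, out of 16098 genes listed for both libraries of a single-cell study of mouse gut stroma. They were taken by name, as the R-spondin genes listed for both libraries, and not by any measured value; Rspo4, the remaining gene of the family, was listed for neither. For each gene the level, the share of cells with at least 1 molecule and the detection together with the other members were read in every annotated cell type of the colon and of the small intestine.

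R-spondins are secreted proteins that strengthen Wnt signalling. They bind the receptors LGR4, LGR5 and LGR6 and, with them, draw the membrane ubiquitin ligases RNF43 and ZNRF3 away from the cell surface, so that these ligases no longer remove Frizzled receptors. In the gut they are made by cells beneath the epithelium, and stem cells at the crypt base, which carry LGR5, depend on them.

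The study profiled stromal cells of healthy, untreated mice by droplet single-cell RNA sequencing (10x Genomics, 3' kit), with 1 library from the colon and 1 from the small intestine. Epithelium was removed and the tissue was digested for 60 min (colon) or 45 min (small intestine), and living cells negative for CD45, an immune marker, and for CD326 (EpCAM), an epithelial marker, were sorted. The number, age, sex and strain of the mice are not given in the labels. The authors' labels gave 6 types with enough cells in both libraries: CD81- fibroblasts (FBs), CD81+ trophocytes (fibroblasts described beneath the crypts), PDGFRa-high SEMFs (subepithelial myofibroblasts), lymphatic endothelial cells (LECs), blood endothelial cells (BECs) and smooth muscle cells (SMCs).

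The colon library held 6018 cells and 40684070 UMIs (unique molecular identifiers, each marking 1 captured RNA molecule), with a median of 6598 per cell, and the small intestine library held 9359 cells and 58134526 UMIs, with a median of 5943. The libraries shared 21 cell barcodes. All 6 lymphatic markers were highest in LECs and all 6 smooth muscle markers in SMCs, in both libraries. Trophocytes ranked first for 5 of their 7 markers in both libraries, but not for Ly6c1 or for Cd81, the gene that gives the label its name. Of the 5 markers of CD81- FBs 5 were highest there in the colon and 2 in the small intestine, where Adamdec1, Cxcl13 and Ccl11 were not. The small intestinal SMC label carried fibroblast transcripts, with 11017 UMIs per 1000000 UMIs of the type (CPM) summed over 5 fibroblast markers against 3214 CPM in colon SMCs. Colon BECs carried 2959 CPM of them and small intestinal BECs 314 CPM.

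Each tissue has a single library, so differences were not checked over replicates and no test was made. Levels are in CPM with 95% intervals from the exact Poisson distribution. For shares of cells the 95% intervals are binomial (exact, Clopper-Pearson). Ratios are given on the log2 scale with exact conditional binomial 95% intervals. All of them cover counting error only, and tissue, mice, digestion time and library cannot be told apart.

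Rspo1 lies on chromosome 4 from 124986430 to 125009099 on the plus strand, Rspo2 on chromosome 15 from 43020794 to 43170826 on the minus strand, and Rspo3 on chromosome 10 from 29452416 to 29535867 on the minus strand (GENCODE, GRCm38, the same build as mm10). All are protein-coding. The transcripts of the 3 genes shared 0 stretches of 30 bases, so no read of that length fits more than 1 of them exactly. An annotated antisense gene overlaps Rspo1 (Gm12930) and another overlaps Rspo3 (Gm48159), along with an unclassified transcript on its own strand (Gm20276). Whether the authors counted with strand is not given in the sources used here.

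Rspo1 and Rspo2 were highest in trophocytes in both libraries, and Rspo3 was highest in LECs in both. Over 11849 genes, 4.79% were highest in trophocytes in both libraries and 11.0% in LECs in both. PDGFRa-high SEMFs, the fibroblasts closest to the epithelium, had the lowest level of the 3 fibroblast labels for all 3 members in both libraries, as had 16.2% of all genes.

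**Figure D1:**
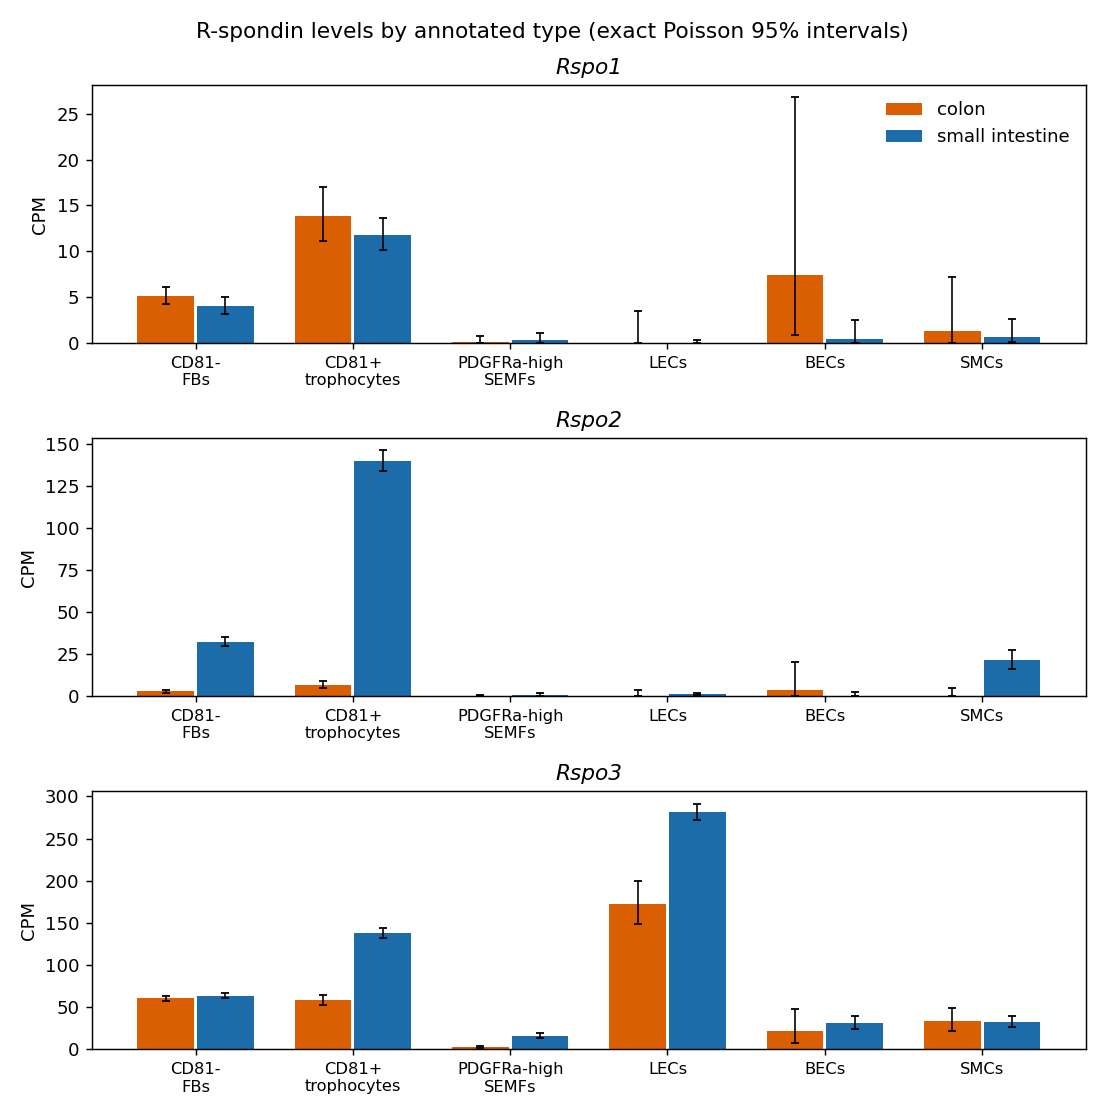
Level of each R-spondin in 6 annotated types (bars, CPM, linear axes from 0 that differ between panels) in the colon (orange) and small intestine (blue), with exact Poisson 95% intervals over 1 library each. The tallest bars are trophocytes for Rspo1 (13.8 and 11.8 CPM) and for Rspo2 in the small intestine (140 CPM), and LECs for Rspo3 (173 and 281 CPM).

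Rspo1 was read at low levels, highest in trophocytes. In the colon it stood at 13.8 CPM in trophocytes (11.1 to 17.0), 5.14 CPM in CD81- FBs (4.29 to 6.12) and 0.134 CPM in SEMFs. In the small intestine it stood at 11.8 CPM in trophocytes (10.1 to 13.6), 4.02 CPM in CD81- FBs (3.19 to 5.00) and 0.307 CPM in SEMFs. Trophocytes were thus above CD81- FBs by 1.43 on the log2 scale in the colon (1.02 to 1.83) and by 1.55 in the small intestine (1.16 to 1.95). Such a gap past 1 was found for 4.69% of genes in the colon and 4.32% in the small intestine.

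Outside the fibroblasts Rspo1 was at or near 0. No Rspo1 UMI was found in LECs of either library, which at a limit of 3 counts allows up to 0.120% positive cells among the 2498 small intestinal LECs (median 4118 UMIs per cell). BECs and SMCs held 1 or 2 UMIs each, and the colon BEC value of 7.42 CPM rests on 2 UMIs in 1 cell. Against this background, 8.57% of colon trophocytes (75 of 875, median 7186 UMIs) and 8.47% of small intestinal trophocytes (162 of 1913, median 7807 UMIs) were positive for Rspo1. After thinning every cell to 2000 UMIs, with shallower cells left out, these shares were 2.80% and 2.42%.

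Rspo2 was read mainly in small intestinal trophocytes. In the small intestine it stood at 140 CPM in trophocytes (134 to 146), 32.5 CPM in CD81- FBs (30.1 to 35.1) and 0.920 CPM in SEMFs. The same labels of the colon held 6.75 CPM (4.89 to 9.10), 2.87 CPM (2.24 to 3.63) and 0 UMIs. The preference for trophocytes over CD81- FBs was present at both levels, at 1.23 on the log2 scale in the colon (0.65 to 1.80) and 2.11 in the small intestine (1.98 to 2.24).

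Small intestinal trophocytes held 74.1% of all Rspo2 UMIs of their library, and pooled fibroblasts held 97.4%. Rspo2 was found in 44.0% of these trophocytes (842 of 1913, 41.8 to 46.3), and 156 of them held at least 4 UMIs, with up to 21 in 1 cell. In colon trophocytes 3.20% were positive (28 of 875, 2.14 to 4.59), with up to 4 UMIs in 1 cell. Thinned to 2000 UMIs per cell the shares were 19.7% and 1.11%. In the colon 0 of 1105 SEMFs (median 6345 UMIs) had a UMI, which at 3 counts allows up to 0.271%. The same held for 0 of 217 LECs (median 4545 UMIs), with a limit of 1.38%. The share in colon trophocytes was above both limits, though these were deeper (median 7186 UMIs). In the small intestine 0.320% of LECs (8 of 2498) had a UMI, a background for that library alone. The part of RNA from outside the cells was not tested.

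Rspo2 was also read in the small intestinal SMC label, at 21.4 CPM (16.3 to 27.5) in 26 of 468 cells, and with 0 UMIs in 125 colon SMCs. The label carries fibroblast RNA. Per 1000 UMIs of Dcn, a fibroblast matrix gene, small intestinal SMCs held 2.88 Rspo2 UMIs, against 2.48 in CD81- FBs and 5.47 in trophocytes of that library. The part of fibroblast RNA in the SMC value was not tested.

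Rspo3 came from lymphatic endothelium and from fibroblasts. LECs held 173 CPM (colon, 149 to 200) and 281 CPM (small intestine, 272 to 291), and 55.8% (121 of 217) and 60.1% (1502 of 2498) of them were positive. These were the highest shares of any member in any compared type, although LECs were shallower (medians of 4545 and 4118 UMIs) than trophocytes. Thinned to 2000 UMIs per cell, 29.4% and 39.4% of LECs were positive.

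Most positive LECs held few molecules. In the small intestine 723 LECs held 1 Rspo3 UMI, 393 held 2, 190 held 3 and 196 held 4 or more. A single LEC held 74 Rspo3 UMIs, with 15 UMIs of the lymphatic chemokine Ccl21a and 0 of Dcn among its 9135 UMIs. LECs held 204 (colon) and 670 (small intestine) Rspo3 UMIs per 1000 Dcn UMIs, against 3.04 to 7.19 in CD81- FBs and trophocytes of both libraries.

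The order of the other types differed between the libraries. In the colon CD81- FBs (60.4 CPM, 57.4 to 63.6) and trophocytes (58.6 CPM, 52.8 to 64.8) held Rspo3 at levels that did not differ beyond counting error, with a log2 ratio of -0.05 (-0.21 to 0.12). In the small intestine trophocytes (138 CPM, 132 to 144) exceeded CD81- FBs (63.8 CPM, 60.4 to 67.4) by 1.11 (1.01 to 1.21). LECs exceeded trophocytes by 1.56 in the colon (1.30 to 1.82) and by 1.03 in the small intestine (0.95 to 1.11).

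Below them, SMCs and BECs did not differ beyond counting error in either library, and both exceeded SEMFs. SMCs held 33.7 CPM (colon) and 32.4 CPM (small intestine), and BECs held 22.2 and 31.5 CPM. In colon SMCs 9 of the 26 Rspo3 UMIs came from 1 cell. The colon BEC value rests on 6 UMIs in 4 cells with a median of 12367 UMIs, and 4 of the 6 lay in cells with both Xist and Y-linked UMIs. It was 9.33 CPM without the 3 deepest BECs and 11.6 CPM without cells that held 3 or more marker UMIs of another class, with 2 UMIs left in each case. SEMFs were lowest in both libraries, with 2.42 CPM (colon, 1.43 to 3.83) and 16.1 CPM (small intestine, 13.2 to 19.5).

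The Rspo3 value of small intestinal BECs moved with lymphatic transcripts. It rested on 69 UMIs in 23 of 524 cells, whose median depth was 8978 UMIs against 3563 for the other BECs. In these 23 cells all 6 lymphatic markers were higher than in the other BECs, at a median log2 ratio of 4.52, and their summed level was 9428 against 436 CPM. Of all genes compared, 10.8% were higher in the positive cells by the same rule, an interval above 0. Without the 36 BECs that held 3 or more UMIs of these markers, 6 Rspo3 UMIs were left, at 3.17 CPM (1.16 to 6.89), below the SEMF level of that library. This removal was chosen after the values were seen.

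Lymphatic markers were also higher in Rspo3-positive cells of the small intestinal SMC and SEMF labels. In SMCs 4 of the 4 markers with at least 50 UMIs were higher (6.54% of all genes were), and in SEMFs 3 of 3 were (5.10% of all genes). In the same SMCs 4 of 5 fibroblast markers and 2 of 3 trophocyte markers were also higher, and 4 of 6 smooth muscle markers were lower (6.20% of all genes). In the SEMFs 6 of 8 SEMF markers were lower (3.69% of all genes). Without the 8 cells with 3 or more lymphatic UMIs in each label, Rspo3 stood at 31.6 CPM in SMCs and 15.3 CPM in SEMFs. Cells with fewer lymphatic UMIs, or with fibroblast transcripts, stayed in. The part of these transcripts in the Rspo3 values was not tested. Neither the colon BECs nor the colon SMCs had any cell with 3 lymphatic UMIs. In the 11 Rspo3-positive colon SMCs 5 of 6 smooth muscle markers were higher and 0 lower, and 0 of 4 fibroblast markers were higher or lower. In Rspo3-positive small intestinal CD81- FBs 2 of 3 lymphatic markers were higher (7.34% of all genes) and 0 lower. In trophocytes 1 of 3 was higher and 0 lower. In the colon 0 were higher in these labels, and 1 of 3 (CD81- FBs) and 1 of 1 (trophocytes) were lower. No share of all genes was taken for colon SMCs or trophocytes.

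**Figure D2:**
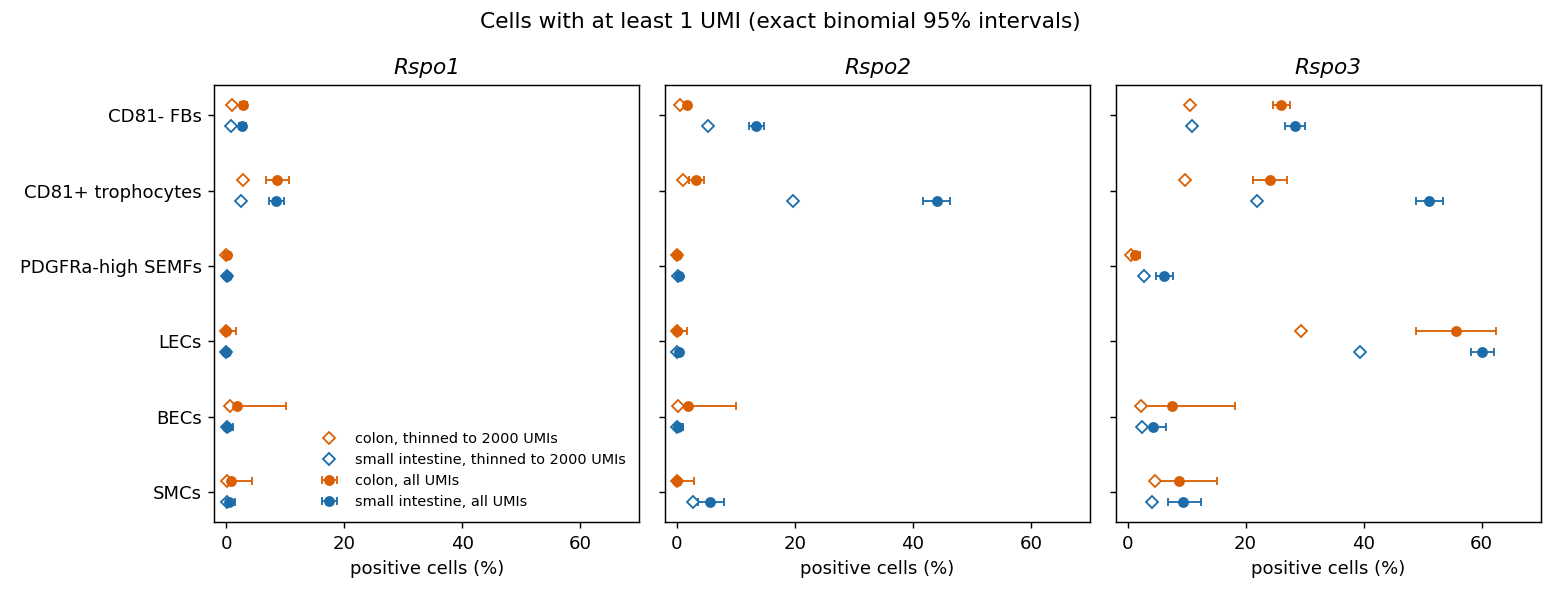
Share of cells with at least 1 UMI of each R-spondin by type (horizontal axis in percent, filled circles with exact binomial 95% intervals) and the same share after thinning each cell to 2000 UMIs (open diamonds), in the colon (orange) and small intestine (blue). Rspo2 is found in 44.0% of small intestinal and 3.20% of colon trophocytes, whereas the Rspo1 shares of the libraries lie side by side.

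The comparison of the tissues gave a different answer for each gene. In pooled fibroblasts, Rspo2 had 114 UMIs in the colon and 2771 in the small intestine, that is 2.96 CPM (2.44 to 3.56) against 66.4 CPM (64.0 to 69.0), a log2 ratio of colon to small intestine of -4.49 (-4.77 to -4.22). It was 22.4-fold higher in the small intestine (18.6 to 27.3). Rspo3 stood at 48.9 CPM (46.7 to 51.2) against 83.1 CPM (80.3 to 85.9), a log2 ratio of -0.76 (-0.85 to -0.68). Rspo1 stood at 5.61 CPM (4.89 to 6.41) against 6.23 CPM (5.50 to 7.04), and its log2 ratio of -0.15 had an interval that included 0 (-0.42 to 0.11).

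Of the 3 members, 1 was thus lower in the colon past 1 on the log2 scale with an interval below 0, and 9.47% of the 13307 genes tested were. The median gene itself had a log2 ratio of -0.17 in pooled fibroblasts. Relative to it, Rspo2 stood at -4.31, Rspo3 at -0.59 and Rspo1 at 0.02.

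The Rspo2 difference was present within each fibroblast label that carried the gene. It was -3.50 in CD81- FBs (-3.88 to -3.15), where 10.4% of genes were lower past 1, and -4.38 in trophocytes (-4.85 to -3.94). In trophocytes this was 20.8-fold (15.4 to 28.8), and of the 3 members Rspo2 and Rspo3 were lower in the colon past 1, against 8.24% of 10454 genes. For SEMFs and SMCs the colon count was 0, so the log2 ratios were bounds, at most -1.19 and at most -2.46 (17.3% of genes were lower past 1 in SMCs). In LECs 14 small intestinal UMIs stood against 0 in the colon, and the smaller colon library gave a bound that says nothing about direction.

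For Rspo1 the log2 ratio was 0.36 in CD81- FBs (-0.06 to 0.78) and 0.23 in trophocytes (-0.15 to 0.61), and both intervals included 0. Relative to the median gene the ratios were 0.58 and 0.34. Without cells that held 3 or more marker UMIs of another class, the pooled fibroblast ratio was -0.45 (-0.74 to -0.16), an interval below 0. That setting left out 612 of 1105 colon but 1041 of 1109 small intestinal SEMFs, so the mix of labels in the pool changed. Within labels it gave 4.59 (colon) against 4.68 CPM in CD81- FBs and 13.9 against 11.8 CPM in trophocytes.

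Rspo3 was compared in the same labels. In CD81- FBs the ratio of -0.08 had an interval that included 0 (-0.19 to 0.03), and relative to the median gene it was 0.14. In trophocytes it was -1.23 (-1.40 to -1.08), or 2.35-fold higher in the small intestine. In SEMFs it was -2.73, or 6.65-fold higher in the small intestine (4.01 to 11.7), where 15.1% of genes were lower past 1. In LECs it was -0.70 (-0.93 to -0.49), and 14.7% of genes were lower past 1. Without the cell with the most Rspo3 UMIs in each library the LEC ratio was -0.69.

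**Figure D3:**
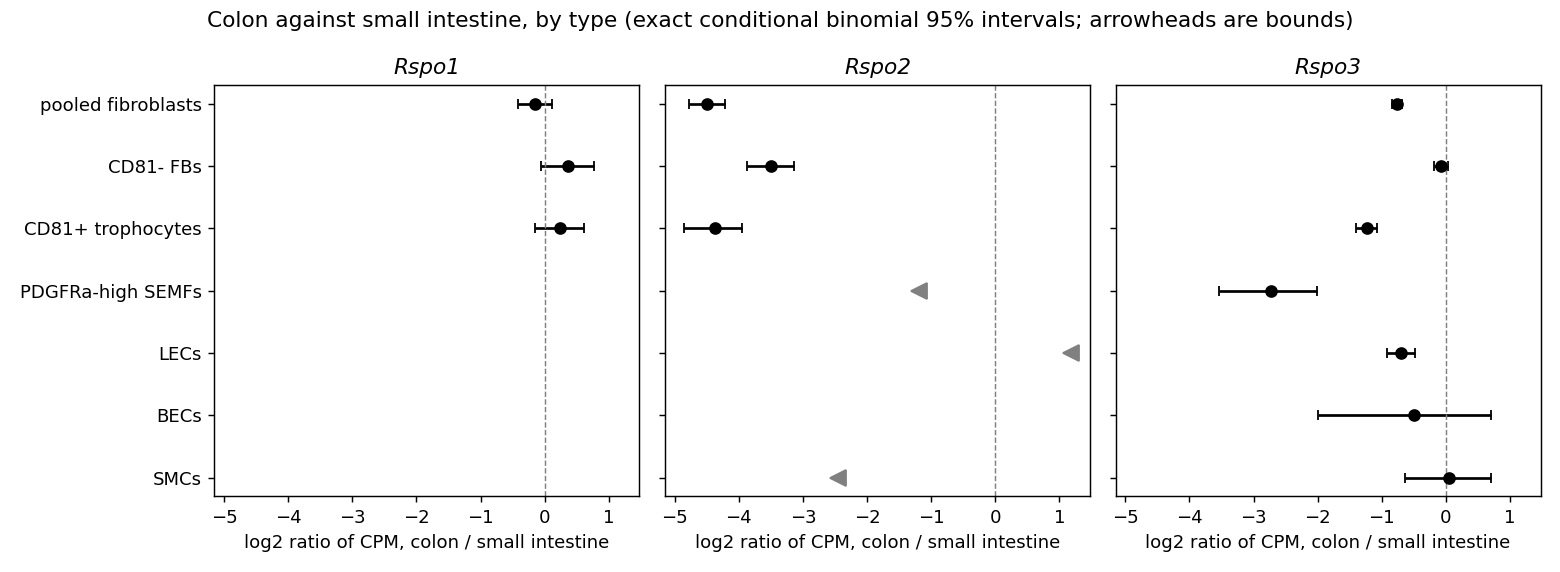
log2 ratio of CPM of the colon over the small intestine (horizontal axis) for each R-spondin in pooled fibroblasts and 6 types, with exact conditional binomial 95% intervals over 1 library each. Grey arrowheads mark upper bounds where the colon count was 0, and types with 3 or fewer UMIs in both libraries have no point. Rspo2 lies at -3.50 to -4.49 in the fibroblast sets with a value, and Rspo1 lies on both sides of 0.

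The colon library held cells with Y-linked UMIs and no Xist UMI and cells with Xist and no Y-linked UMI, and the members were read in both sets. Rspo2 did not differ between them in pooled fibroblasts beyond counting error (log2 ratio 0.00, -0.69 to 0.66). In trophocytes Rspo3 was higher in the cells with Y-linked UMIs, at 76.9 CPM (65.5 to 89.8) against 43.7 CPM (36.7 to 51.7). Rspo1 was lower in them, at 8.12 CPM (17 UMIs) against 18.0 CPM (56 UMIs), a log2 ratio of -1.15 (-2.02 to -0.34). In CD81- FBs Rspo1 went the other way, at 6.72 against 4.38 CPM, a log2 ratio of 0.62 (0.02 to 1.21). In LECs Rspo3 did not differ between the sets beyond counting error, at 185 and 174 CPM. With only 1 of these sets as the colon, the trophocyte ratio of Rspo3 to the small intestine was -0.84 or -1.66, and that of Rspo1 was -0.54 (-1.35 to 0.18) or 0.61 (0.15 to 1.05). For CD81- FBs the Rspo1 ratio was 0.74 (0.20 to 1.27) or 0.13 (-0.41 to 0.65), so whether the interval included 0 depended on the set in both labels.

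The members were then read together in single cells. At least 1 member was detected in 73.5% of small intestinal trophocytes (71.5 to 75.5) and in 32.6% of colon trophocytes (29.5 to 35.8). In CD81- FBs the shares were 36.1% and 29.2%, and in SEMFs 6.58% and 1.36%. All 3 members were detected in 42 small intestinal trophocytes, 16 small intestinal CD81- FBs, 1 small intestinal SMC and 1 colon CD81- FB.

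In small intestinal trophocytes the members were detected nearly as often together as their shares alone would give. Rspo2 and Rspo3 were found together in 465 cells, against 430.9 for the product of their shares, or 1.08 times as many (1.12 after thinning to 2000 UMIs). Rspo2 was found in 47.5% of Rspo3-positive (44.3 to 50.7) and 40.4% of Rspo3-negative trophocytes (37.2 to 43.6), which had medians of 8103 and 7411 UMIs. Rspo1 with Rspo3 (82 cells) and Rspo1 with Rspo2 (72 cells) stood at 0.99 and 1.01 times the product.

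In small intestinal CD81- FBs the members were detected together more often than that. Rspo2 was found in 23.8% of Rspo3-positive (20.9 to 27.0) and 9.25% of Rspo3-negative cells (8.02 to 10.6), and 191 cells held both, 1.78 times the product of the shares. Rspo1 was found in 5.12% (3.70 to 6.88) and 1.73% (1.21 to 2.40) of these cells, and in 5.29% and 2.29% of Rspo2-positive and Rspo2-negative cells. After thinning to 2000 UMIs the 3 pairs stood at 1.97, 2.08 and 1.79 times the product.

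In the colon few cells held more than 1 member. Cells with both Rspo2 and Rspo3 numbered 26 of 3631 CD81- FBs, 1.58 times the product (1.91 after thinning), and 12 of 875 trophocytes, 1.78 times (1.84 after thinning). The intervals of the Rspo2 share in Rspo3-positive and Rspo3-negative cells overlapped in both labels, at 1.80% to 4.0% against 0.972% to 1.89% and at 2.97% to 9.72% against 1.38% to 3.88%. Rspo1 and Rspo2 were found together in 3 colon CD81- FBs, 1.63 times the product. Rspo1 and Rspo3 stood at 0.91 times the product in colon CD81- FBs (25 cells) and 0.94 times in colon trophocytes (17 cells). Of 28 Rspo2-positive colon trophocytes 0 were positive for Rspo1, against 2.40 cells at the product of the shares, too few to read.

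**Figure D4:**
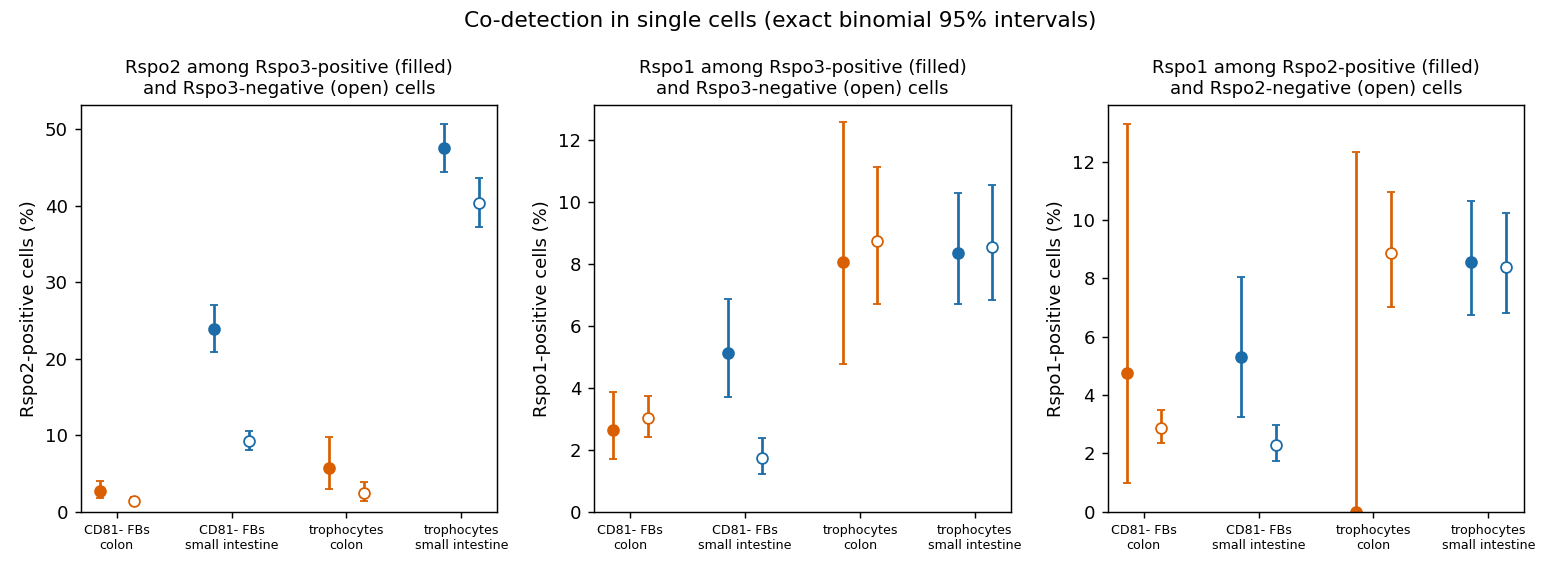
Share of cells positive for 1 R-spondin (vertical axes in percent, which differ between panels) among cells positive (filled) and negative (open) for another, in CD81- FBs and trophocytes of the colon (orange) and small intestine (blue), with exact binomial 95% intervals. The filled and open points of all 3 pairs are apart in small intestinal CD81- FBs (23.8% against 9.25% for Rspo2 by Rspo3), and those of Rspo1 lie at the same height in small intestinal trophocytes.

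What else differed between positive and negative cells was read as a description, since positive cells were deeper in trophocytes, CD81- FBs and LECs of both libraries and the genes named are the extremes of long lists. Within trophocytes, 8956 genes were compared in both libraries for Rspo1 and Rspo3, and 0 genes passed 1 on the log2 scale after adding 20 CPM in both libraries at once, in either direction. Rspo3-positive trophocytes had more Hhip, which encodes a hedgehog-binding protein, at 168 against 69.0 CPM (colon) and 31.0 against 12.9 CPM (small intestine). Gm30382, Gria4 and Spon1 were also among the genes with the largest excess. Pi16, a marker of adventitial fibroblasts, was lower in them, at 208 against 323 CPM and 131 against 199 CPM, as were Ptn, Itgbl1, Plcb4 and Fxyd6. Pi16 is also on the trophocyte marker list used here. Of the 6 such markers with at least 50 UMIs in the small intestine, 5 were lower in Rspo3-positive trophocytes and 1 was higher. In the colon 2 of 7 were lower and 2 higher. Of 5 CD81- FB markers 4 were higher and 0 lower in the small intestine, and 2 higher and 1 lower in the colon. No share of all genes was taken for these counts.

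Rspo1-positive trophocytes had less of the chemokine genes Ccl2 and Ccl7. Ccl2 stood at 46.1 against 173 CPM (colon) and 29.9 against 71.1 CPM (small intestine). Cmah, Tagln and Homer1 were also lower, and Sntg1, Wt1 and Dctn1 were higher. Agmo and Mri1 were higher in the small intestine, and their colon intervals included 0. Wt1, a transcription factor gene of mesothelium and its derivatives, was found in 9 of 75 Rspo1-positive colon trophocytes and in 6 of 162 in the small intestine, where 1 cell held 20 of the 31 UMIs. These shares were 12% and 3.70%, against 5.13% and 0.628% of Rspo1-negative trophocytes. Of the 50 colon trophocytes with Wt1, 9 were positive for Rspo1. The 3 mesothelial genes looked for (Msln, Upk3b, Lrrn4) were listed for neither library.

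Rspo2-positive trophocytes were compared in the small intestine alone, since the colon had 28 of them. They had more Cxcl13 (198 against 95.5 CPM), which encodes a B cell chemokine, and more Dkk2 (323 against 182 CPM), a gene of the Dickkopf family of secreted Wnt regulators, as well as more Inpp4b, Cacnb2 and Chodl. Ccl21a was lower (10.3 against 74.6 CPM), as were Ptn (16.4 against 77.7 CPM), Igfbp5, Igfbp3 and Ccl2. Of 10904 genes, 0 were past 1 upward and 4 downward.

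In CD81- FBs, a set chosen after these values were seen, Rspo2-positive and Rspo3-positive cells differed from negative cells in a related way. Grem1, a BMP antagonist made by stroma near the crypt base, was higher in positive cells of both libraries for both members. In Rspo3-positive cells it stood at 547 against 256 CPM (colon) and 252 against 131 CPM (small intestine), and in Rspo2-positive cells at 789.5 against 327 CPM and 358 against 136 CPM. Foxp2, a transcription factor gene, was also higher for both members. Wnt4, a Wnt ligand, was lower for both: in Rspo3-positive cells it stood at 129.6 against 238 CPM (colon) and 18.1 against 41.3 CPM (small intestine). Agt, which encodes angiotensinogen, was lower too, at 29.3 against 72.9 CPM and 20.2 against 63.2 CPM.

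Markers of the neighbouring fibroblast labels and of other lists moved with the members in small intestinal CD81- FBs. Of the 6 trophocyte markers with at least 50 UMIs, 5 were higher in Rspo2-positive cells (9.83% of all genes were) and 5 in Rspo3-positive cells (7.34%), and 1 marker, Pi16, was lower in each. Of the 8 SEMF markers, 6 were lower in Rspo2-positive cells (11.6% of all genes) and 6 in Rspo3-positive cells (8.74%). For both members 5 of 5 fibroblast markers were higher and 5 of 5 smooth muscle markers lower, against the same shares of all genes. Of the 5 CD81- FB markers 3 were lower for both, and 2 (Rspo2) or 1 (Rspo3) were higher, beside the same shares of all genes. In the colon 2 of these 5 were higher and 2 lower for Rspo2. For Rspo3 there 3 were higher and 1 lower, at a median log2 ratio of 0.41. In the colon 0 (Rspo2) and 2 (Rspo3) of 5 fibroblast markers were higher, and 2 and 1 were lower. Of 5 smooth muscle markers there, 1 (Rspo2) and 0 (Rspo3) were higher, and 0 and 1 were lower. Of all genes in the colon, 5.36% were higher and 3.16% lower for Rspo2, and 11.2% and 7.52% for Rspo3. In the colon 7 of the 8 SEMF markers were lower in Rspo3-positive cells (7.52% of all genes), whereas 2 of the 6 trophocyte markers were higher (11.2%) and 3 were lower. Colon Rspo2-positive CD81- FBs, of which there were 63, had Grem1 higher of 6 trophocyte markers (5.36% of all genes) and Cd34 and Ly6c1 lower (3.16%). Of the 8 SEMF markers 1 was higher and 1 lower in them, at a median log2 ratio of 0.07. How far these cells lie between labels was not tested.

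**Figure D5:**
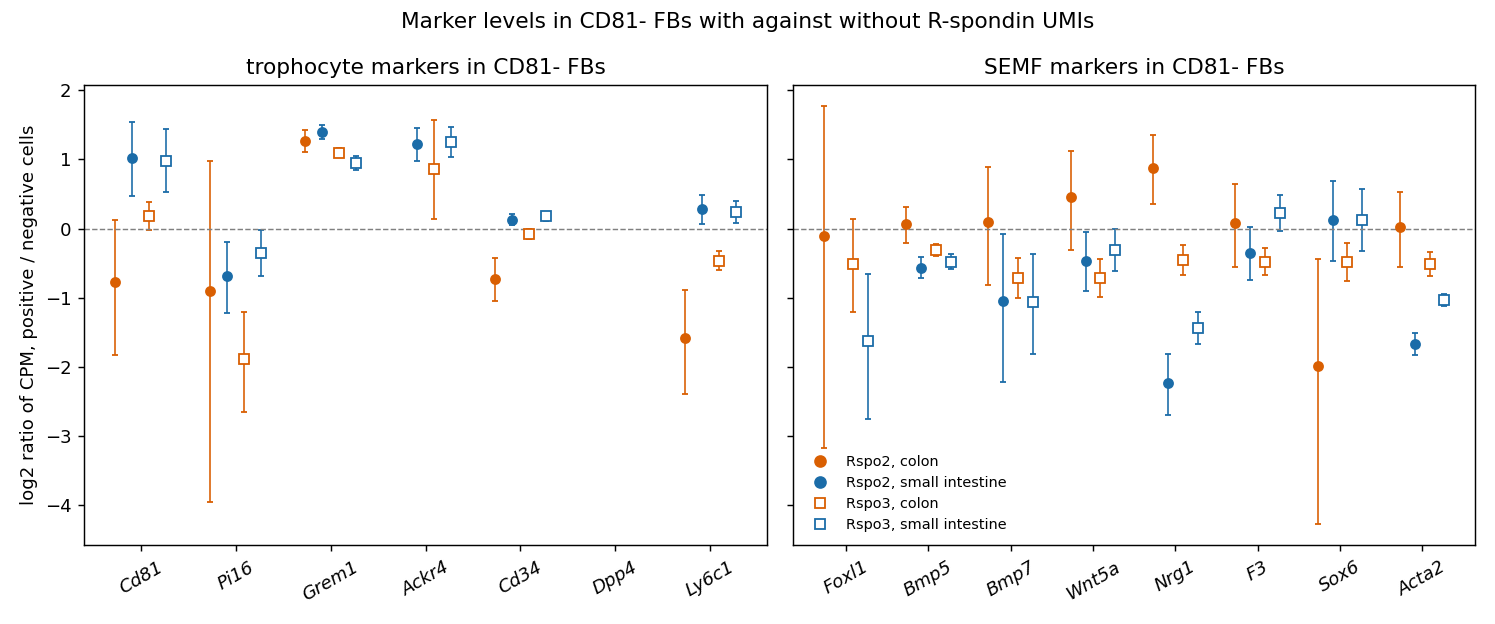
log2 ratio of CPM in positive over negative CD81- FBs (vertical axis) for trophocyte markers (left) and SEMF markers (right), for Rspo2 (filled circles) and Rspo3 (open squares) in the colon (orange) and small intestine (blue), with exact conditional binomial 95% intervals; markers with under 50 UMIs, or with 0 UMIs in the positive cells, have no point. Grem1 is above 0 in all 4 comparisons, and in the small intestine Nrg1 and Acta2 are below 0 for both members.

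Within LECs, also read after the values were seen, Rspo3 went with small differences. Of 3427 genes compared in both libraries 0 were past 1 in both at once. Nts, the neurotensin gene, stood at 36.0 CPM in positive against 83.9 CPM in negative LECs of the small intestine, and at 65.2 against 98.5 CPM in the colon, where the interval of the ratio included 0. Ccl11, a chemokine gene, was higher in positive LECs, at 62.0 against 27.5 CPM (colon) and 34.7 against 19.6 CPM (small intestine). The lymphatic markers had a median log2 ratio of 0.06 in the colon and 0.00 in the small intestine; of the 6 markers 2 were higher and 1 was lower in each library. Other markers moved with Rspo3 in LECs. In the small intestine 3 of 5 fibroblast markers were higher (5.24% of all genes), and 5 of 5 smooth muscle markers (median -1.10) and 3 of 4 SEMF markers were lower (5.29%). In the colon 3 of 5 markers of CD81- FBs, a list that holds Ccl11, were higher (4.19% of all genes), at 920 against 619 CPM summed. In the small intestine, of the 4 such markers with at least 50 UMIs, 1 was higher (5.24%) and 2 were lower (5.29%). The list summed there to 243 against 276 CPM. Of 2 SEMF markers in the colon 1 was lower (3.51%). The part of such transcripts in these differences was not tested.

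Genes with a like pattern were sought over the 12 combinations of library and type, by the Pearson correlation of log2(CPM + 1) among 11659 genes. These points share libraries and labels, so the values are descriptions. The genes most like Rspo1 were Cntn4 (r = 0.93), Metrnl, Impdh2, Wnt11, a Wnt ligand, and Igsf8. Those most like Rspo2 were Gm12022 (r = 0.97), Ism1, Gm30382, Art4 and Bcat1. For Rspo3 they were Selenop (r = 0.93), which encodes a secreted selenoprotein, Maf, a transcription factor gene, March3, Laptm4a and Thsd7a. Between the members themselves r was 0.66 for Rspo1 and Rspo2, 0.31 for Rspo2 and Rspo3, and 0.16 for Rspo1 and Rspo3.

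Other genes of the pathway, from lists chosen with earlier results known, were read in pooled fibroblasts by the same rule. Of the R-spondin receptors and the ligases they act on, Lgr4 and Znrf3 had enough UMIs and neither differed past 1; Lgr4 stood at 17.2 CPM (colon) and 16.5 CPM (small intestine). Of 9 Wnt ligands tested, 5 were higher in the colon past 1 (Wnt2, Wnt4, Wnt5b, Wnt6 and Wnt9a, against 6.88% of all genes) and 0 were lower, the opposite direction to Rspo2 and Rspo3. Wnt4 had a log2 ratio of 2.31 (2.23 to 2.39). Of 9 Wnt receptors 1 was lower in the colon (Fzd3), near the 9.47% of all genes, and 0 were higher, and of 8 heparan sulfate proteoglycans, a class of surface proteins that bind secreted ligands, 2 were lower (Gpc3 and Gpc4) and 0 higher. The 2 genes of Wnt secretion tested differed by less than 1. In LECs Wnt2 went the other way, with 214 CPM in the small intestine against 14.1 CPM in the colon.

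Secreted inhibitors were read by the same rule. Among secreted BMP antagonists, Chrd and Chrdl1 were lower in colon fibroblasts past 1. Grem1 did not pass 1 there, with a log2 ratio of -0.82 (-0.86 to -0.79), and its direction depended on the label. Its level in trophocytes was 573 CPM (colon) against 1298 CPM (small intestine), and in SEMFs 4.71 against 8.89 CPM. The opposite order was read for CD81- FBs, at 336 against 168 CPM, and for LECs, at 35.7 against 11.7 CPM. Rspo2 and Rspo3 were also lower in colon trophocytes, though not in that label alone. Of 7 secreted Wnt inhibitors, Sfrp2 and Sfrp4 were higher in the colon (6.88% of all genes) and Dkk2 was lower (9.47%), with a log2 ratio of -4.98 (-5.18 to -4.79). Of 9 genes known as targets of canonical Wnt signalling, Lef1 and Nkd2 were higher and Nkd1, Apcdd1 and Tnfrsf19 lower in the colon, with a median of -0.54 against -0.17 for all genes.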

How the data were processed

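The authors deposited, for each of the 2 libraries, unnormalized UMI counts by gene and cell, and a table of cell type labels, per the file headers. The labels are text and were used as deposited by the authors, apart from spellings that were joined and 3 colon endothelial labels pooled as BECs. The submitters' processing notes name Cell Ranger 7.1.0, Seurat 4 and the build mm10; filters on cells, doublet removal and the way labels were given are not given in the sources used here. No doublet caller was run; cells of high UMIs or with markers of another class were left out in alternatives. The normalized tables were not used.

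UMIs were summed per library and type and expressed as CPM with Python 3.11.15, NumPy 2.4.6 and SciPy 1.17.1. A type was compared with at least 50 cells in each library. Where 1 library had 0 UMIs, 3 counts stood in for it and the ratio is a bound; with 3 or fewer UMIs in both libraries no ratio was formed. Calls among all genes needed 100 UMIs in both libraries together, a log2 ratio past 1 and an interval on that side of 0. Thinned shares are exact expectations for 2000 UMIs per cell, leaving out 69 colon and 343 small intestinal cells. The ratio intervals were tested on simulated Poisson counts, the model that they assume. That check holds no spread between cells, mice or libraries.

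The members, lists and rules were chosen with earlier results of these data known. Genes were named by rule: all members and list genes; the 5 with the highest r per member among genes reaching 10 CPM; and the 5 highest and 5 lowest by log2 ratio of (CPM + 20) of positive to negative cells, with 50 UMIs per library, in both libraries where each had 30 positive cells. Cells of 1 library are not replicates, so no p-value was computed. A gene that these rules name is not reported here.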

Additional observations from a re-analysis of the deposited data

Results flagged for a closer look

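Rspo3 was read in cells outside the compared types. Of the 24 small intestinal cells labelled proliferating, 12 were positive with 29 Rspo3 UMIs in all, and 28 of these lay in the 19 cells with more lymphatic than fibroblast marker UMIs. Of the 2 colon cells with 1 of the pericyte labels (myPCs), 1 held 4 Rspo3 UMIs, above the floor of 3 counts. Both labels have too few cells for a level.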

How the results depend on the processing

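The ratios of the tissues were recomputed under 140 alternatives over 16 results, of which 114 stayed within the main counting interval. In pooled fibroblasts with equal weight of the 3 labels Rspo2 moved to -4.17 and Rspo1 to 0.25, a change of sign from a value whose interval included 0. Rspo1 moved to -0.45 without cells that held 3 or more marker UMIs of another class, with an interval (-0.74 to -0.16) that no longer included 0. That setting also changed the mix of labels, and within CD81- FBs it gave 4.59 (colon) against 4.68 CPM. In pooled fibroblasts Rspo3 moved to -0.59 relative to the median gene and to -0.88 without marker-mixed cells. It moved to -0.57 or -0.98 with colon cells of only Y-linked or only Xist UMIs. For Rspo2 in SEMFs the bound was at most 0.50 with only Y-linked colon cells, which says nothing about direction; the cause is the smaller colon count. The causes of the other moves were not tested. Of 31 shares of positive cells, 21 moved on thinning. Of 45 co-detection alternatives 42 stayed within the counting interval. In small intestinal pooled fibroblasts the 3 pairs fell to between 1.31 and 1.41 times the product without marker-mixed cells. That setting left out 1041 of 1109 SEMFs, a label with few R-spondin UMIs, so the mix of labels in the pool changed. Of the genes of like pattern, 2 or 3 of 5 were kept for Rspo1, Rspo2 or Rspo3 in 4 of 6 alternatives, and 5 in the other alternatives. No paired analysis was possible because each tissue has 1 library.

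Outside fibroblasts, each compared type held 0 to 2 UMIs of Rspo1 in both libraries and of Rspo2 in the colon. Depth and cell number limit such readings in small sets, such as colon BECs, where the Rspo1 interval was 0.898 to 26.8 CPM. In small intestinal LECs, with 0 Rspo1 UMIs, the interval reached 0.329 CPM, against 11.8 CPM in trophocytes. Without marker-mixed cells 3 SMCs were left in each library, too few to read.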
